A study of Mus musculus with 16 samples.

Results

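The genes described here encode the subunits of oxidative phosphorylation, in CD4+CD8+ (double-positive) thymocytes from organ culture of fetal thymus, a system that keeps the lobes alive outside the embryo. Members were the probe sets whose single gene symbol in the platform annotation starts with Nduf, Uqcr or Atp5, or with Cox and a number of the complex IV subunits, or is Sdha, Sdhb, Sdhc, Sdhd, Cyc1 or Cycs. That gave 101 of the 12422 probe sets tested and 73 of the 8251 genes measured: 31 of complex I, 4 of complex II, 8 of complex III, 15 of complex IV, 14 of complex V (ATP synthase) and cytochrome c itself. Each gene is given by its probe set with the highest mean log2 value. Ndufaf1 and Ndufaf4 are complex I assembly factors and Cox7a2l is a factor of respiratory supercomplexes, so these 3 members are not read as subunits. For 13 members, among them Sdhb, Cox4i1, Cox6a1, Cox6c, Atp5d, Uqcrb, Uqcrc2 and Ndufa3, the probe set carries the suffix s or f, which marks probes that may match related transcripts, so their values are less certain. The suffix was r for 4 members, among them Cox6b2 and Cox8b, i for Atp5e and g for Atp5c1, and their values may also be less certain. A further 10 probe sets matched the rule but named several genes and were left out, and 9 symbols, among them Ndufs5, Ndufs6 and Cox7c, occurred only there.

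Total RNA had been hybridised to 16 Affymetrix mouse arrays in 6 groups. They were BDC2.5/NOD cells at 16 h of peptide (n = 3), BDC2.5/NOD cells with no peptide (n = 3), wild-type NOD cells (n = 2), BDC2.5/B6g7 cells at 16 h of peptide (n = 3), BDC2.5/B6g7 cells with no peptide (n = 3) and wild-type B6g7 cells (n = 2). The BDC2.5 transgenes encode the antigen receptor of a CD4 clone that causes diabetes. NOD is a strain with spontaneous autoimmune diabetes, and B6g7 is C57BL/6 with the NOD MHC haplotype. The labels give no age, peptide name or dose, do not say whether wild-type cultures received peptide, and do not say that replicates came from separate animals, so p-values measure the spread between arrays, which may be technical.

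Complexes I to IV of the inner mitochondrial membrane pass electrons from NADH and succinate to oxygen, and complexes I, III and IV pump protons. ATP synthase uses the proton gradient to make ATP. Most subunits are encoded in the nucleus, as all members here are, and are transcribed with the help of factors such as NRF1 and GABP, while a small core is encoded in mitochondrial DNA. In developing thymocytes, T cell receptor signals are accompanied by changes in metabolism, and cytochrome c released from mitochondria also triggers the apoptosome.

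Median intensity lay between 54.7 and 59.1 per array. Of the 73 members, 60 were above their array's median on every array and 9 were below it on every array. The 9 dim ones were Ndufa12, Ndufc2, Ndufs4, Ndufaf4, Cox5a, Cox7a1, Cox8a, Atp5j2 and Atp5pb, each read here by a probe set whose low value does not show that the transcript is rare. The 9 markers of double-positive thymocytes measured were above the median of every array. Among them Cd8a read 1074 to 5146, Rag1 543 to 4745 and Dntt 864 to 4624 over the 16 arrays, and Cd4 read 158.1 to 327. The lowest values were those of Rag2, at 74.26 to 402.3, and Ptcra, at 94.8 to 400.3. In sorted bulk RNA, fewer cells of a type and less RNA per cell cannot be told apart.

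The largest differences among the members lay between arrays of the same group, not between groups. In earlier results of these data, the arrays numbered 3 of each BDC2.5 group and those numbered 2 of each wild-type group stood apart from the other 10. Recomputed without the members, the first principal component of the 3000 most variable probe sets held 57.6% of their variance and ran from 6.89 to 37.4 in these 6 arrays and from -26.35 to 3.12 in the others. The 3' minus 5' signal of beta-actin, a measure of RNA quality and labelling, was 1.69 ± 0.25 (SD, n = 6) in the set-apart arrays and 2.67 ± 0.32 (SD, n = 10) in the others on the log2 scale. Its part in the values below was not tested. The labels call these arrays nothing but replicates, and the array of BDC2.5/B6g7 cells with peptide was the least set apart of the 6.

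Within groups, 48 members were dimmer and 25 brighter in the set-apart arrays than in the others, with a median log2 difference of -0.18, against -0.07 over all 8251 genes. A difference of over 1.5-fold was seen in 41.1% of the members (21 lower, 9 higher) and in 14% of all genes (372 lower, 785 higher). All genes were not matched to the members for brightness, and its part in this contrast was not tested. The set-apart array was the lowest of its group in all 6 groups for 22 members and the highest in all 6 for 10 members. These values are a description with no test, because the arrays were singled out from a table that holds the members too.

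**Figure D1:**
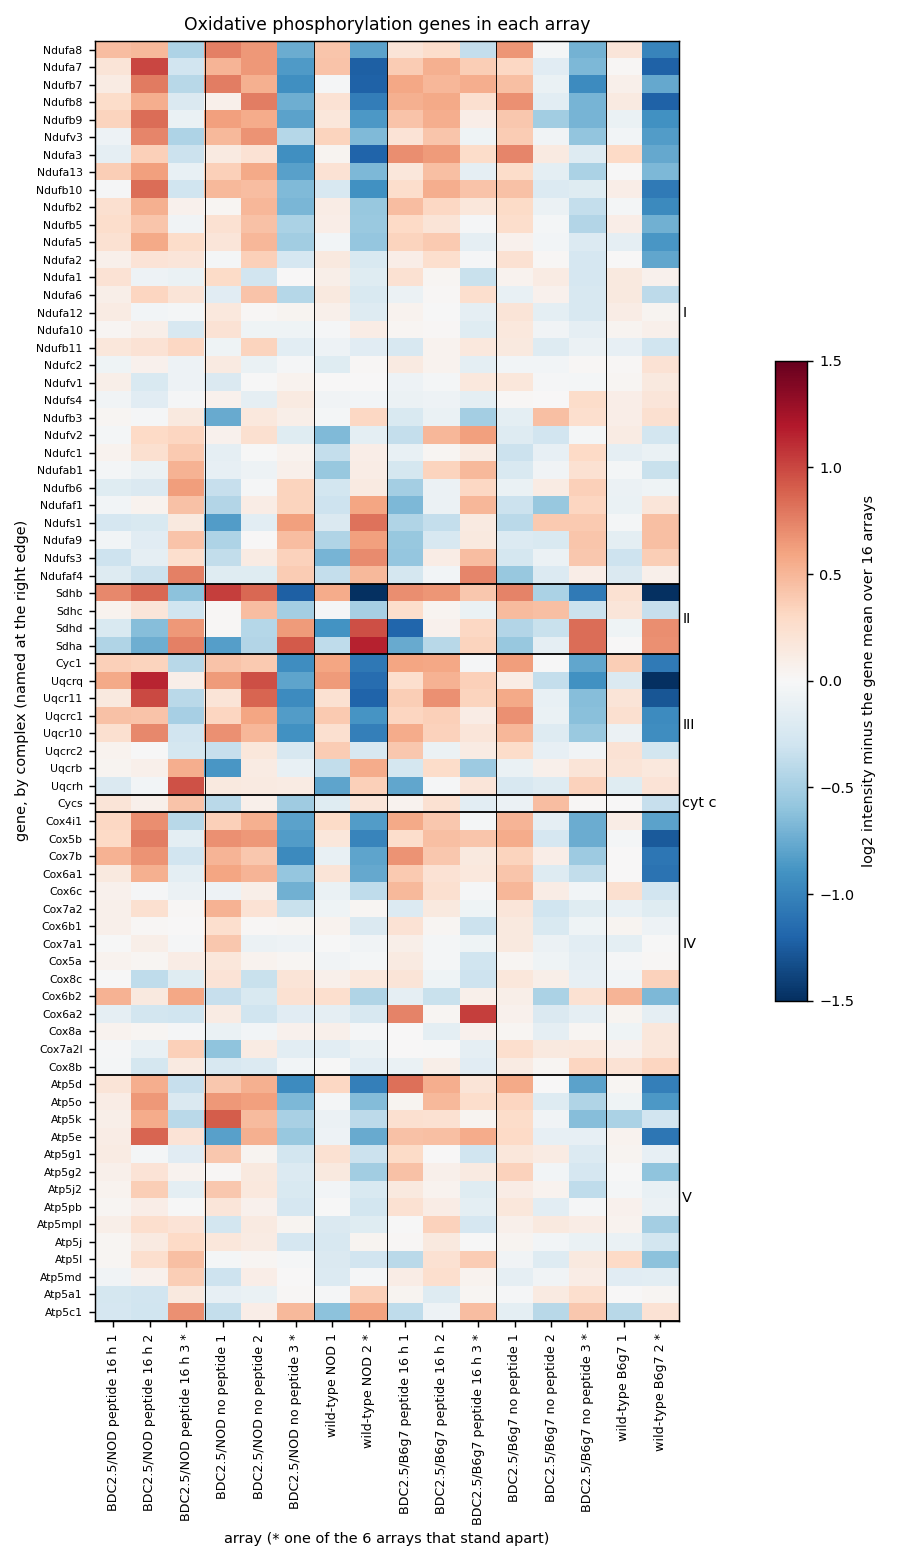
Each row is a member gene, each column 1 of the 16 arrays, and the colour is the log2 intensity minus the gene's mean over the 16 arrays, limited to 1.5 either way. Rows run by complex and, within it, from the most negative to the most positive difference between set-apart (marked with *) and other arrays. Most marked columns are blue in the upper rows of most blocks and red in the lower rows of complexes I, II and V, such as Sdha and Atp5c1.

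The 4 genes of complex II, succinate dehydrogenase, split. Sdhb, the iron-sulfur subunit, and Sdhc, a membrane anchor, were lowest in the set-apart array of every group, while Sdha, the flavoprotein that oxidises succinate, and Sdhd, the other anchor, were highest in it. Sdhb read 495, 324 and 254 in the set-apart arrays of peptide-treated, untreated and wild-type NOD cells, and 1242, 1372, 1556, 1374 and 1113 in the other NOD arrays. In B6g7 cells it read 1000, 361 and 214 in the set-apart arrays, and 1227, 1194, 1271, 543 and 883 in the others. In a fit with 1 mean per group and 1 term for the set-apart arrays, its log2 difference was -1.49, 0.356-fold.

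Sdha ran the other way, at 122, 135 and 160 in the set-apart NOD arrays and 90.9, 129 and 116 in the set-apart B6g7 arrays, against 40.6 to 72.1 in the other 10 arrays, with no overlap. The log2 difference was 1.21 for Sdha and 1.09 for Sdhd, and it was -0.54 for Sdhc. Sdhd read 732 to 1156 in the set-apart arrays and 260 to 618 in the others. Across the 16 arrays, after removal of group means, the Pearson correlation of log2 values was 0.89 between Sdha and Sdhd, 0.85 between Sdhb and Sdhc, and -0.91 between Sdha and Sdhb. With the set-apart term also removed these were 0.439, 0.314 and -0.545.

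**Figure D2:**
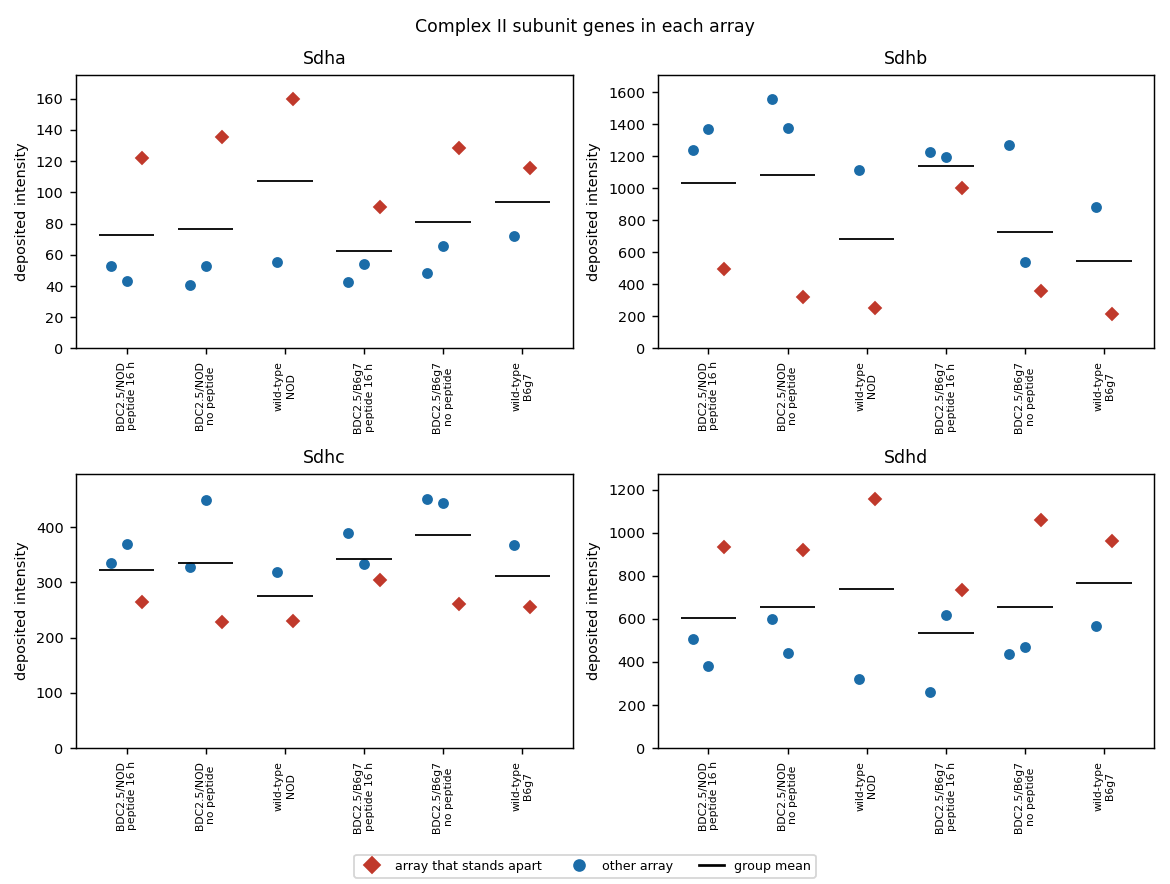
Deposited intensity (linear axis from 0) of the 4 complex II genes in each array, by group, with red diamonds for the arrays that stand apart, blue circles for the others and a black line at the group mean. Diamonds lie highest in every group for Sdha and Sdhd and lowest in every group for Sdhb and Sdhc.

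The promoters of these genes are shown because they carry matches to the motif cores of factors that act on nuclear respiratory genes. They come from RefSeq (GRCm38.p6), and each window runs from 250 bases before to 50 bases after the gene's start, in the direction of transcription. The letters searched on both strands were GCGCANGCG for the NRF1 core, CCGGAAG for the ETS core that GABP binds, and AAGATGGCG for the YY1 core, and capitals mark the matches. A promoter of Cycs, a gene long known as an NRF1 target, is added, and the table used holds none of Sdhc. The windows are Sdha at chr13:74350191-74350490 (minus strand), Sdhd at chr9:50603800-50604099 (minus strand), Sdhb at chr4:140961021-140961320 (plus strand) and Cycs at chr6:50566520-50566819 (minus strand).
Sdha: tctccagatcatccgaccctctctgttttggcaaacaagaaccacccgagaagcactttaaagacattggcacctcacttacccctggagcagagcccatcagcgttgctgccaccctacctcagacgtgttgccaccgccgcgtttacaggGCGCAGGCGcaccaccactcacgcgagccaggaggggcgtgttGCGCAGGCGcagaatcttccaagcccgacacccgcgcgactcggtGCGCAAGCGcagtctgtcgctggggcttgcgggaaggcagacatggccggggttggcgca
Sdhd: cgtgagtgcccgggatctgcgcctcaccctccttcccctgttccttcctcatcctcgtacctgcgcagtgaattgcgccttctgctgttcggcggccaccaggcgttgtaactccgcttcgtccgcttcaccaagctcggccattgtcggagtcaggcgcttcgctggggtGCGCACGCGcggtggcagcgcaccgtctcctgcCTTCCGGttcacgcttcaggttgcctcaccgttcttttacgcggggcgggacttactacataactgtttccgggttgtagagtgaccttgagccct
Sdhb: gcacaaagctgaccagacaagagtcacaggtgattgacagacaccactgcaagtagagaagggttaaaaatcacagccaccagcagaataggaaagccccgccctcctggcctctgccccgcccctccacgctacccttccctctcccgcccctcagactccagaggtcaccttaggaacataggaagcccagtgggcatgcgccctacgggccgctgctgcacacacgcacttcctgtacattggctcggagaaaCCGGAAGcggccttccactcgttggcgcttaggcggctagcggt
Cycs: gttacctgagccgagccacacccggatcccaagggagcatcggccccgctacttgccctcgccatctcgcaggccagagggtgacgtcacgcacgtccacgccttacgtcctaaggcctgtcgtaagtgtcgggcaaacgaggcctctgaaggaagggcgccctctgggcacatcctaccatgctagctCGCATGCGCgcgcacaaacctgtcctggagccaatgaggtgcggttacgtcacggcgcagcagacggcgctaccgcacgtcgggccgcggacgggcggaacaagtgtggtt

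Sdha held 3 NRF1 core matches, Sdhd held 1 NRF1 and 1 ETS match, Sdhb held 1 ETS match downstream of the start and Cycs held 1 NRF1 match. A match is a run of letters and not a bound site. Promoter windows were found for 59 of the 73 members. The NRF1 core occurred in 27.1% of them (16 genes), against 6.25% of all 32851 windows in the table and 9.63% of its protein-coding genes. The ETS core also occurred in 27.1% of the members (16 genes), against 8.86% of all windows and 12.9% of protein-coding genes. The YY1 core occurred in 8.47% (5 genes), against 1.4% of all windows and 2.14% of protein-coding genes. The 3 cores share no letters at any match in the printed windows. The median set-apart difference was -0.41 in the 16 members with the NRF1 core and -0.13 in the other 43, and 0.0001 in the 16 with the ETS core and -0.20 in the other 43. It was 0.10 in the 5 with the YY1 core and -0.19 in the other 54. Of the members with a window, 17 were over 1.5-fold dimmer and 8 over 1.5-fold brighter. The NRF1 core occurred in 6 and 4 of these, the ETS core in 4 and 4, and the YY1 core in 0 and 1. These values were not tested.

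Complex III, which passes electrons from ubiquinol to cytochrome c, had the most negative median of the complexes, -0.91 over its 8 genes. Cyc1, the cytochrome c1 haem subunit, read 953 to 1973 in the set-apart arrays and 1984 to 3085 in the others, with no overlap (log2 difference -1.11). Uqcrc1, a core subunit, read 309 to 642 in the set-apart arrays and 554 to 955 in the others (-0.95). The small subunits Uqcrq (-1.05), Uqcr11 (-1.03) and Uqcr10 (-0.88) lay with them, while the other core subunit Uqcrc2 gave -0.26. Uqcrb, which lies near the ubiquinone site, gave 0.19 and the hinge subunit Uqcrh gave 0.61. After removal of group means the median pairwise correlation among the 8 genes was 0.67 over the 16 arrays. With the set-apart term also removed it was 0.46. Over all genes, not matched for brightness, these values were 0.05 and 0.01.

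In complex IV, cytochrome c oxidase, the widely expressed nuclear subunits Cox4i1 (-0.94), Cox5b (-0.87), Cox7b (-0.87) and Cox6a1 (-0.69) were over 1.5-fold dimmer in the set-apart arrays, and no member was over 1.5-fold brighter. In ATP synthase, Atp5d, the delta subunit of the central stalk, gave -1.003 and Atp5o, of the peripheral stalk, gave -0.63. Atp5c1, the gamma subunit that turns inside the catalytic head, gave 0.79, and Atp5a1, the alpha subunit of that head, gave 0.21. Atp5c1 read 1476 to 2048 in the set-apart arrays and 832 to 1366 in the others, with no overlap.

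Complex I, NADH dehydrogenase, spanned both directions. Accessory subunits such as Ndufa8 (-1.05), Ndufa7 (-0.97), Ndufb7 (-0.92) and Ndufb8 (-0.91) were dimmer in the set-apart arrays. The core subunit of the NADH arm Ndufs1 (0.65), the core subunit Ndufs3 (0.69), the accessory subunit Ndufa9 (0.67) and the assembly factors Ndufaf4 (0.69) and Ndufaf1 (0.63) were brighter. Ndufv1, which binds FMN and NADH, gave 0.07. Of the 31 complex I members, 9 were over 1.5-fold lower and 5 over 1.5-fold higher.

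Different probe sets of a gene did not always carry the difference. Of the 21 members with several probe sets, 11 had the same sign on all of them. The brightest probe set of Cyc1 gave -1.11 and its other one -0.15, and the 2 probe sets of Cox4i1 gave -0.94 and 0.01. For Atp5c1 both gave a positive value, 0.79 and 0.92. Atp5d had values from -1.003 to 0.33 over its 5 probe sets. Outside the members, the median difference was -0.34 over 61 mitochondrial ribosomal protein genes, 0.03 over 19 genes of the tricarboxylic acid cycle and pyruvate dehydrogenase, and -0.01 over 9 double-positive thymocyte markers.

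**Figure D3:**
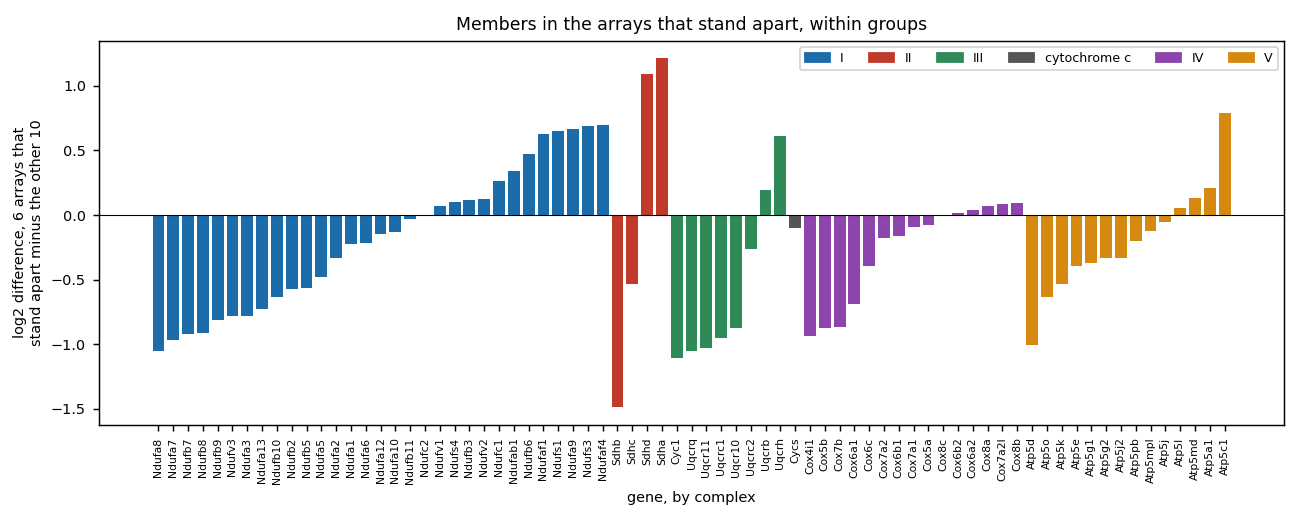
Bars give, for each member, the log2 difference between the 6 arrays that stand apart and the other 10. It comes from a fit with 1 mean per group, and bars are coloured by complex. Values run from -1.49 for Sdhb to 1.21 for Sdha, with 48 genes below 0 and 25 above.

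Peptide-treated BDC2.5 thymocytes were set against untreated ones in each strain. limma called none of the 73 members in NOD cells, in B6g7 cells, in their mean or in their difference, and 1, 1, 2 and 1 members had an unadjusted p under 0.05. Of the 12422 probe sets, 207, 422, 445 and 147 had one. Over all probe sets the calls made up 0% in NOD cells, 0.00805% in B6g7 cells, 0.0242% in the mean of the strains and 0% in their difference, and the members' count of 0 is near that background. The median log2 difference of the members was 0.10 in NOD cells (50 of 73 higher) and 0.09 in B6g7 cells (50 of 73 higher), against -0.03 and -0.003 over all genes. Of all genes 42.4% were higher in NOD cells and 49% in B6g7 cells, against 68.5% of the members in each.

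The NOD value rested on the set-apart arrays: without them 33 of 73 members were higher, with a median of -0.02, and 43% of all genes were. Set-apart array against set-apart array, 57 members were higher in NOD cells, with a median of 0.36. Leaving out the untreated NOD array numbered 3 alone gave 33 higher and a median of -0.04. In B6g7 cells 48 members were higher between the set-apart arrays (median 0.19) and 50 between the others (0.07), where 51.2% of all genes were. Neither set was balanced on the principal component. The set-apart B6g7 arrays lay at 6.89 with peptide and 29.1 without, and those of NOD at 17.56 and 31.69. The other B6g7 arrays lay at -21.84 and -13.18 with peptide and at -22.85 and 3.12 without. The part of these imbalances was not tested. Double-positive thymocyte markers lay on the lower side with peptide, with 2 of 9 higher in NOD cells (median -0.36) and 1 of 9 in B6g7 cells (-0.60), none called. Their summed intensity was 6907 to 8089 with peptide and 7485 to 12850 without in NOD cells, and 5644 to 9623 with peptide and 10230 to 11440 without in B6g7 cells. Without the set-apart arrays, in an alternative chosen after seeing the data, their medians were -0.20 in NOD and -0.31 in B6g7 cells. None of these markers was at 0, and their part in the members' values was not tested.

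In NOD cells no member's arrays were wholly above or below those of the untreated group, where 2.27% of all genes were wholly above and 3.25% wholly below. In B6g7 cells 4 members lay wholly above (3.83% of all genes) and 2 wholly below (3.05%). The 4 were Ndufa7, Ndufb7, Uqcrq and Atp5e, and the 2 were Ndufs4 and Cox7a2l. These counts were near the background.

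Ndufb7, an accessory subunit of complex I, read 1025, 963 and 995 in peptide-treated B6g7 cells and 936, 641 and 356 in untreated ones (log2 difference 0.73 ± 0.49, SE of the fit, adjusted p = 1). The other probe set of Ndufb7, at a mean intensity of 12.09, gave -0.02. Uqcrq read 1428, 1732 and 1538 with peptide and 1296, 941 and 638 without it in B6g7 cells (0.76 ± 0.55, adjusted p = 1). Atp5e, the epsilon subunit of the central stalk, read 263, 266 and 286 with peptide and 240, 178 and 178 without. In each of these genes the treated arrays lay close together, and the untreated set-apart array was among the 2 lowest. Its principal component value was 29.1, against 6.89 in the treated set-apart array, and the part of this imbalance was not tested.

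Sdhb gave the highest value of the members in B6g7 cells, 0.85 ± 0.73, with the treated array numbered 1 below its untreated partner. In NOD cells it gave 0.10 ± 0.73. The lowest in B6g7 cells was Ndufb3, an accessory subunit of complex I, at 179, 195 and 147 with peptide and 189, 287 and 250 without (-0.47 ± 0.24, adjusted p = 1). In NOD cells the largest positive values were those of Atp5e (0.68 ± 0.36), Cox6b2 (0.53 ± 0.29) and Cycs (0.52 ± 0.21), each at adjusted p = 1, and the most negative were those of Atp5k, Cox8c and Ndufv3, from -0.22 to -0.18. The other probe sets of Cox6b2 gave -0.07 and 0.06.

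Cycs encodes the cytochrome c that carries electrons between complexes III and IV. It read 178, 163 and 208 in treated NOD cells and 117, 163 and 108 in untreated ones, and the groups touched. In B6g7 cells it read 161, 182 and 139 with peptide and 146, 215 and 157 without, with overlap (-0.09 ± 0.21). The difference of the 2 responses, NOD minus B6g7, was 0.61 ± 0.30 (adjusted p = 1). The other large differences of response were 0.75 ± 0.43 for Uqcrb, 0.69 ± 0.34 for Ndufb3, -0.76 ± 1.04 for Sdhb, -0.70 ± 0.69 for Ndufb7 and -0.82 ± 0.30 for Cox6a2, none of them called.

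**Figure D4:**
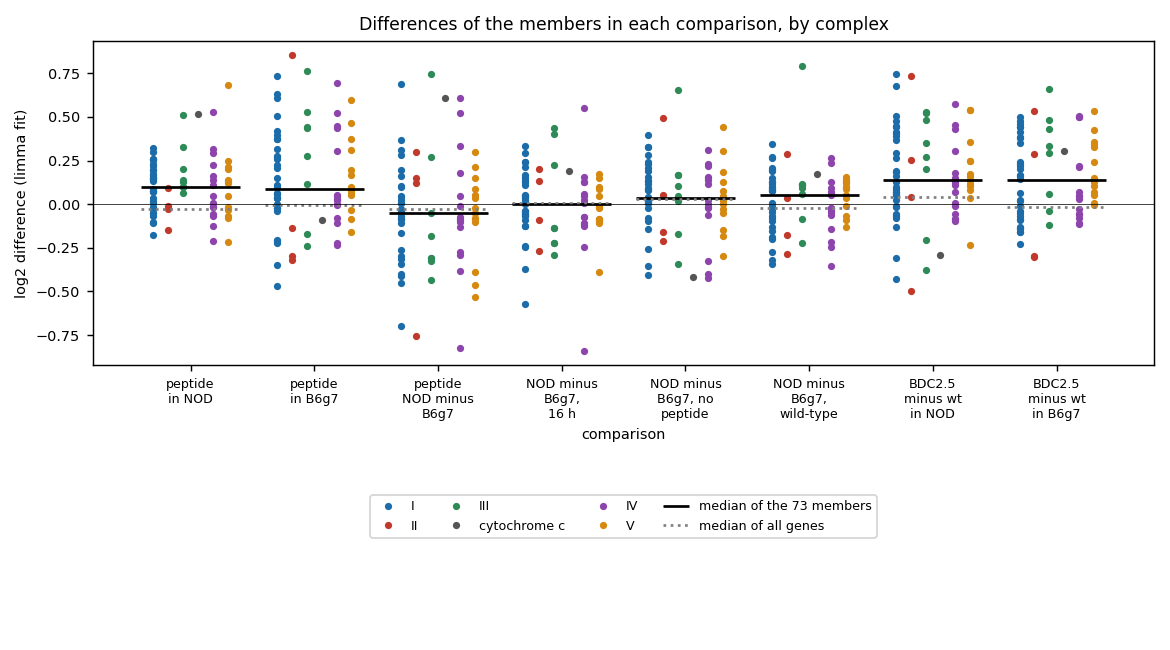
Log2 difference of each member (points, coloured by complex) in 8 comparisons, with a black line at the median of the 73 members and a dotted grey line at the median of all genes. Points scatter on both sides of 0 in every comparison, and the 2 medians lie within 0.2 of each other throughout.

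The strain comparison set NOD against B6g7 cells in each state, with no arrays shared between states. No member was called at 16 h of peptide, without peptide or in wild-type cells, where calls made up 0.491%, 0.266% and 0.0886% of all probe sets. An unadjusted p under 0.05 was found for 1, 0 and 0 members, and for 705, 428 and 259 of the 12422 probe sets. Medians of the members were -0.0009 at 16 h (36 of 73 higher), 0.04 without peptide (50) and 0.05 in wild-type cells (41), against 0.004, 0.03 and -0.02 over all genes. Of all genes 51.2%, 60.2% and 42.4% were higher in these states, against 49.3%, 68.5% and 56.2% of the members. The median without peptide was -0.02 (35 of 73 higher) when the untreated B6g7 array numbered 3 was left out and 0.15 when that of NOD was. Between the set-apart arrays 23 of 73 members were higher without peptide (median -0.11), and between the others 48 were (0.13), so the direction was opposite in the 2 sets. Between the others 57.5% of all genes were higher. On the principal component these other arrays lay at -26.35 and -16.97 in NOD and at -22.85 and 3.12 in B6g7 cells. The part of this imbalance was not tested. The wild-type median was -0.18 (18 of 73 higher) without the B6g7 array numbered 2 and 0.14 (43 of 73) without that numbered 1. The mean of the 3 states, a comparison added after seeing the data, called 1.3% of all probe sets and no member. An unadjusted p under 0.05 was found for 2 members and for 743 of the 12422 probe sets.

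Cox6a2, the heart and muscle isoform of a complex IV subunit, gave the smallest p of the members. It read 94.2, 85.5 and 84.2 in NOD cells at 16 h of peptide and 173, 106 and 212 in B6g7 cells at 16 h, with no overlap. In the other 4 groups it read 84.5 to 113, so the B6g7 peptide arrays numbered 1 and 3 were the high ones. The strain difference at 16 h was -0.84 ± 0.21 (adjusted p = 0.178), lower in 3 of 3 same-numbered pairs. With the replicate number as a block it passed (limma, adjusted p = 0.0379), and 129 probe sets in all passed, against 61 without the block. Over all alternatives the adjusted p ran from 0.0133, without the B6g7 peptide array numbered 2, to 1, without the set-apart arrays.

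The peptide difference of Cox6a2 was 0.70 ± 0.21 in B6g7 cells (adjusted p = 1) and -0.13 ± 0.21 in NOD cells. Of 9 striated muscle markers, 7 were higher in NOD cells at 16 h, with a median difference of 0.03 and none called, and their summed intensity was 475.4 to 532.4 in NOD and 472 to 587.4 in B6g7 cells. Summed myeloid and dendritic markers were 456.5 to 486.2 in treated B6g7 cells and 367 to 434.2 in untreated ones, none of the 10 called. In NOD cells they were 368.3 to 398.3 with peptide and 371.9 to 438.6 without. At 16 h 2 of the 10 were higher in NOD than in B6g7 cells (median -0.10), none called. Whether they bear on Cox6a2 was not tested.

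**Figure D5:**
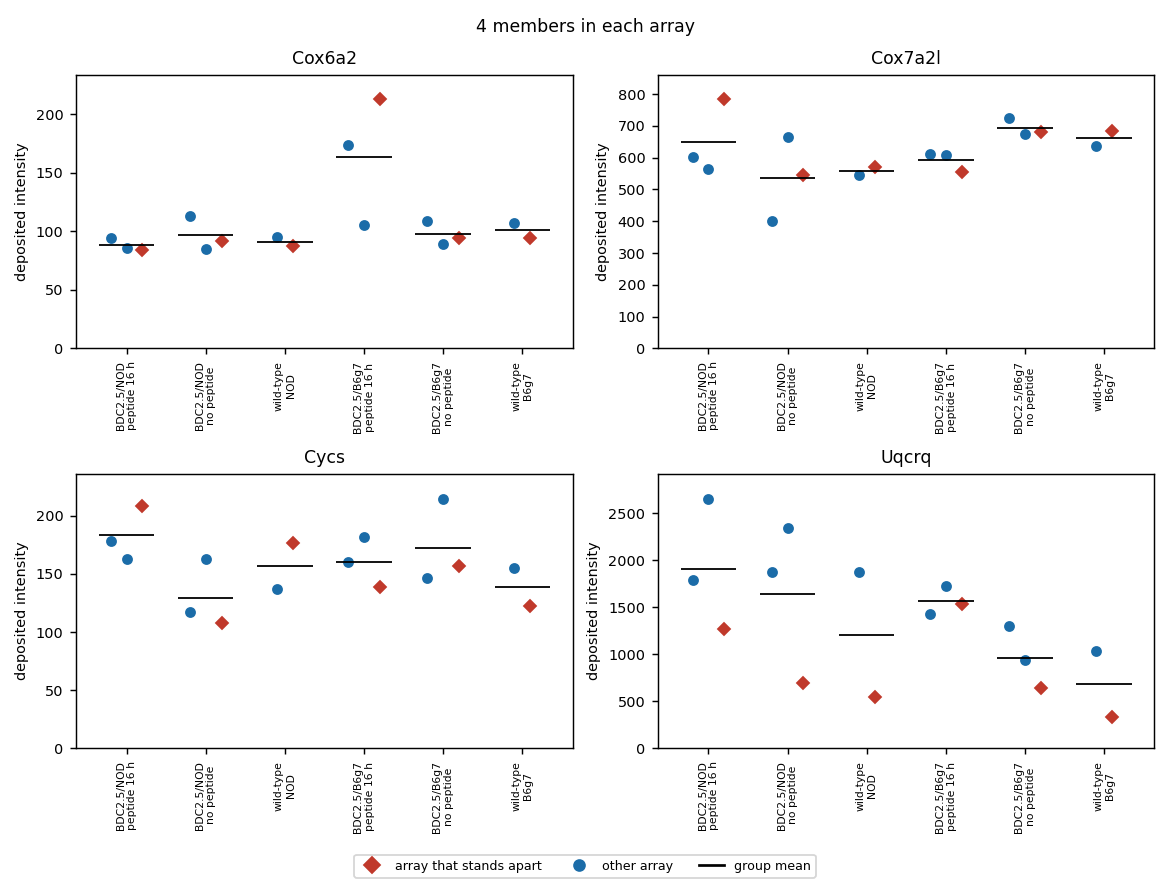
Deposited intensity (linear axis from 0) of Cox6a2, Cox7a2l, Cycs and Uqcrq in each array by group, with red diamonds for the arrays that stand apart, blue circles for the others and a black line at the group mean. Cox6a2 is high in 2 of 3 B6g7 peptide arrays, and the red diamonds of Uqcrq lie lowest in 5 of 6 groups.

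Cox7a2l was lower in NOD cells, with no overlap, in 2 of the 3 states. It read 399, 665 and 546 in NOD cells and 725, 675 and 682 in B6g7 cells without peptide (-0.40 ± 0.20, adjusted p = 1), and 544 and 570 in wild-type NOD and 636 and 684 in wild-type B6g7 cells. At 16 h it read 603, 566 and 783 in NOD and 611, 607 and 556 in B6g7 cells, which overlapped. Cox8b, a muscle isoform, gave the lowest value in wild-type cells, at 172 and 155 in NOD and 201 and 216 in B6g7 cells (-0.35 ± 0.18, adjusted p = 1), and did not overlap without peptide either. Without peptide its value was -0.32, and its other probe set, at a mean intensity of 25.85, gave 0.04.

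Uqcrq had the highest NOD value of the members in wild-type cells and without peptide. It read 1875, 2350 and 692 in NOD and 1296, 941 and 638 in B6g7 cells without peptide (0.66 ± 0.55), and 1873 and 545 in NOD and 1035 and 328 in B6g7 wild-type cells (0.79 ± 0.68). It was higher in NOD in every same-numbered pair of these states, and the groups overlapped with the set-apart arrays and not without them. The mean over the 3 states was 0.56 ± 0.34, and its adjusted p ran from 0.0878, without the set-apart arrays, to 1. Ndufa3, an accessory subunit of complex I, ran the other way, at -0.44 ± 0.25 over the 3 states (adjusted p = 1).

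At 16 h, 3 members lay wholly higher in NOD (Ndufb3, Ndufb11 and Cox6b2, against 6.47% of all genes) and 1, Cox6a2, wholly lower (5.67%). Without peptide none lay wholly higher (3.01%) and 2, Cox7a2l and Cox8b, wholly lower (2.39%). In wild-type cells 1 lay wholly higher (6.69%), Cox7a2, and 6 lay wholly lower (13.3%), where 2 arrays a group make separation common. Cox6b2, the testis isoform of a complex IV subunit, read 112, 87.3 and 118 in NOD and 71.5, 62.5 and 82.5 in B6g7 cells at 16 h (0.55 ± 0.29, adjusted p = 0.998). Its other probe sets gave 0.16 and 0.52.

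The transgene comparison set BDC2.5 cells without peptide against wild-type cells, and it shares the untreated arrays with the peptide comparison. No member was called in NOD or in B6g7 cells, where 0.0564% and 0.0805% of all probe sets were, and no member had an unadjusted p under 0.05. Of the 12422 probe sets, 248 in NOD and 185 in B6g7 cells had one. The medians were 0.14 in NOD (55 of 73 higher) and 0.14 in B6g7 cells (50 of 73 higher), against 0.04 and -0.01 over all genes. Of all genes 60.9% were higher in NOD and 45.5% in B6g7 cells, against 75.3% and 68.5% of the members. Set-apart arrays were 1 of 3 in BDC2.5 and 1 of 2 in wild-type groups, so this comparison was not balanced for them. With them as a term in the fit the medians were 0.12 and 0.11, and without them 0.16 and 0.05. Leaving out only the wild-type array numbered 2 gave -0.003 in NOD (36 of 73 higher) and -0.04 in B6g7 cells (29 of 73 higher).

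Of the 9 double-positive markers 2 were higher in each strain, with medians of -0.15 in NOD and -0.40 in B6g7 cells, and their part was not tested. Complex V genes were mostly on the higher side, 13 of 14 in each strain, at a median of 0.15 in both. Of all genes 60.9% were higher in NOD and 45.5% in B6g7 cells. In the set-apart arrays, for which this comparison was not balanced, 10 of the 14 complex V genes were dimmer (median -0.27). The part of this imbalance in the complex V counts was not tested. Sdhb gave 0.74 ± 0.82 in NOD and 0.53 ± 0.82 in B6g7 cells and Sdha -0.50 ± 0.61 and -0.30 ± 0.61, opposite in sign to their set-apart differences. Ndufb7 (0.75 ± 0.54) and Ndufb10 (0.67 ± 0.43) were the highest complex I genes in NOD cells. In NOD 2 members, Atp5l and Cox5a, lay wholly higher (5.79% of all genes) and none wholly lower (2.36%). In B6g7 cells 2, Atp5md and Atp5mpl, lay wholly higher (4.17%) and 1, Ndufc2, wholly lower (6.31%).

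Tissue-restricted isoforms of complex IV on the array were Cox6a2, Cox6b2, Cox7a1, Cox8b and Cox8c. Cox7a1, the muscle isoform of subunit 7a, read 10.7 to 15.7 on all arrays, below the array medians. Cox8c, known from testis, read 208 to 346 and separated the groups in no comparison. Of their widely expressed counterparts, Cox6a1 (957 to 3103) was lowest in the set-apart array of all 6 groups, with a log2 difference of -0.69, while Cox7a2 gave -0.18, Cox6b1 -0.16 and Cox8a 0.07. Levels of different probe sets are not comparable.

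Genes around the complexes were read from lists. Of 10 regulators of mitochondrial biogenesis measured, Pprc1, a coactivator related to PGC-1, fell in NOD relative to B6g7 cells at 16 h (-0.56 ± 0.10, adjusted p = 0.0269) at a low mean intensity of 18.6, and the other 9 were not called. Of 19 genes of the tricarboxylic acid cycle and pyruvate dehydrogenase, Pdk1, a kinase that inactivates pyruvate dehydrogenase, was lower in NOD in every state: -1.21 ± 0.19 at 16 h (adjusted p = 0.0118), -1.58 ± 0.19 without peptide (0.00181) and -2.08 ± 0.23 in wild-type cells (0.00188). Suclg2, a subunit of succinyl-CoA synthetase, was lower in NOD than in B6g7 cells at 16 h (-1.07 ± 0.22, adjusted p = 0.04998). No gene of these lists, of 12 assembly factors, of 19 carriers and redox partners or of 61 mitochondrial ribosomal proteins was called in a peptide or transgene comparison. Of the 61 ribosomal proteins 45 were higher with peptide in NOD and 46 in B6g7 cells, where 42.4% and 49% of all genes were. In the transgene comparisons 56 were higher in NOD and 54 in B6g7 cells, where 60.9% and 45.5% of all genes were. Without the set-apart arrays 23 were higher with peptide in NOD and 46 in B6g7 cells, and 55 and 42 in the transgene comparisons in NOD and in B6g7 cells, where 43%, 51.2%, 57% and 49.1% of all genes were. Beside the strain values at 16 h, 8 of 9 double-positive markers were higher in NOD (median 0.39), and the other one, Cd8b1, was called lower in NOD (-2.02 ± 0.36, adjusted p = 0.0247).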

How the data were processed

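Total RNA of CD4+CD8+ thymocytes was hybridised to 16 arrays, grouped by the labels into 6 groups. The values deposited by the authors are 1 linear intensity per probe set and array, already scaled between arrays, and the sources used here do not name the method. The 66 control probe sets among 12488 were not tested. Intensities were taken to log2 with no pseudocount and fitted in limma 3.58.1 (R 4.3.3) with all 16 arrays, 1 mean per group and eBayes with a trend. Tests were two-sided, with Benjamini-Hochberg adjustment within each comparison and calls at an adjusted p under 0.05. The fit was run on simulated data with capped noise drawn separately for each array. These held no shared departure of arrays, so the run does not show how the fit performs with the set-apart arrays. The number of arrays limits the precision.

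The members, lists and the rule for named genes were chosen with earlier results of these data known. The rule named called members, the 3 highest and 3 lowest per comparison, and fixed central subunits and isoforms. Some of these fixed genes are not reported here. Members named for groups that do not overlap, or for their set-apart difference, were chosen after their values were seen. Matching by gene ID to RefSeq (GRCm38.p6) found all 73 members, and 0 symbols differed.

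Same-numbered arrays of the BDC2.5 groups deviated together from their group means, with correlations over non-member probe sets of 0.167 to 0.841, so the numbers were taken to pair them. A shared departure of the arrays numbered 3 can alone give such values. For the transgene comparisons the correlations were 0.677 and -0.496 in NOD and 0.693 and 0.057 in B6g7 cells. Alternatives were quantile normalization, median centring, a pseudocount of 16, a mean intensity of at least 50, no variance trend, only the groups compared, the replicate block, the set-apart arrays left out or as a term, the mean of all probe sets, and leaving out each replicate. Figures were drawn with matplotlib 3.10.9.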

Additional observations from a re-analysis of the deposited data

How the results depend on the processing

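No member was called under any alternative except Cox6a2 in the strain comparison at 16 h, where 1 member passed under the replicate block and 0 to 1 when each replicate was left out in turn, the 1 being without the B6g7 peptide array numbered 2. The replicate number joins the set-apart wild-type arrays numbered 2 with BDC2.5 arrays numbered 2 that do not stand apart. In the transgene comparisons the block therefore does not follow the set-apart arrays. The block changed no other call of a member. With it, 3 probe sets of the whole table were called for peptide in B6g7 (1 without it), 7 for the mean of the strains (3), 69 for strain without peptide (33) and 32 in wild-type cells (11). Leaving out each replicate moved the members' median in the wild-type strain comparison between -0.1782 and 0.1425 and in the B6g7 transgene comparison between -0.0431 and 0.2511, where the array left out is 1 of 2 in a wild-type group. For peptide in NOD, 33 members were higher without the set-apart arrays, against 50 with them. Of 1067 values of named members under alternatives, 1041 moved by less than the gene's SD between replicates, 24 moved further and 2 passed the threshold. No member was called in the main fit, so none could lose a call. The SD includes the set-apart arrays and ran from 0.097 to 1.0305 on the log2 scale, so staying within it is a weak check. Sdhb in the NOD transgene comparison, for example, ran from -0.3316 to 1.8025. Some alternatives, such as no variance trend, cannot change a log2 difference. Of the 1067 values, 29 turned sign, with none of those called. No detection values were used, so signal over background is unknown for the dim members.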
